A study of Mus musculus with 8 samples.

Results

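Regions at which a peak of ZBTB2 was listed in mouse embryonic stem cells (ESCs) grown in serum, and in no other cell state of the study, are described here. Chromatin bound by ZBTB2-GFP was pulled down with a GFP antibody (Abcam ab290) and sequenced (ChIP-seq), and the peak lists of 3 of the 8 samples were used. All 3 are ESCs of the line IB10 (129/Ola background), or neural progenitor cells (NPCs) derived from them, that carry ZBTB2-GFP on a bacterial artificial chromosome (BAC) beside their own genome. Serum ESCs were grown in Serum/LIF medium, 2i ESCs in Serum/LIF + 2i, where 2i stands for inhibitors of the kinases MEK and GSK3, and NPCs in NPC medium. Each state is 1 library and 1 peak list, and whether the tagged cells are 1 clone is not given in the sources used here. Inputs and the GFP immunoprecipitations of untagged cells are not analysed here, so binding of the antibody without the tag was not checked. The lists hold no expression values, so the labelled cell types were not checked against markers.

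The 4072 serum, 5934 2i and 320 NPC peaks were merged into 6680 regions wherever they overlapped by 1 bp or more. A region with serum peaks only became a member, and 831 regions did so, or 12.4% of all regions. Members in a dense block of peaks near the start of chromosome 10, on the mitochondrial chromosome or on contigs of unknown position were left out, which removed 5 and left 826 serum-only regions. They make up 21.2% of the 3890 kept regions with a serum peak (95% Clopper-Pearson interval 19.96 to 22.6), and each consists of exactly 1 serum peak. Another 3061 kept regions were in both ESC lists, and 2681 were in the 2i list alone. The members were chosen by the presence of a serum peak and the absence of a 2i and an NPC peak, so their scores, widths and distances are given as a description. No test between media was made, because each medium is 1 library and peaks are not replicates. Intervals cover counting error only and treat regions as independent. Read depth is unknown for every list.

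ZBTB2 belongs to a family of nuclear proteins that join a BTB domain, through which they pair with themselves and with partner proteins, to zinc fingers that contact DNA. The study treats it as a protein that reads DNA free of cytosine methylation. Such DNA is found chiefly at CpG-rich promoters, and most of the remaining genome carries methylation in serum ESCs and in somatic cells. ESCs kept in 2i lose much of this methylation across the genome. The culture medium is therefore a natural comparison for such a protein. The peak positions are in mm9 and no mm9 annotation was used, so regions are named by position, with starts counted from 1, and not by gene or sequence.

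Serum-only regions were narrow and weak. Their median width was 247 bp (95% order-statistic interval 241 to 255), with quartiles of 203 and 320 bp, a minimum of 180 bp and a maximum of 933 bp. The serum peaks of regions in both ESC lists had a median width of 448 bp (437 to 462) and reached 1895 bp. The deposited score is a −log10 value, of p or of q, from peak calling, and higher scores mean stronger evidence for a peak. Members had a median serum score of 9.69 (9.24 to 9.99), with a lowest score of 3.09 and a highest of 59.8, against 19.4 (18.7 to 20.1) for regions in both ESC lists. The 2681 regions listed only in 2i, whose scores come from another list, had a median width of 236 bp (231 to 240) and stood at a median of 31.8% of the way up their own list. The narrowest of them was 156 bp, against 180 bp among members, so widths of the lists start from different lower ends. Members stood at a median of 25.9% of the way up the serum list.

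**Figure D1:**
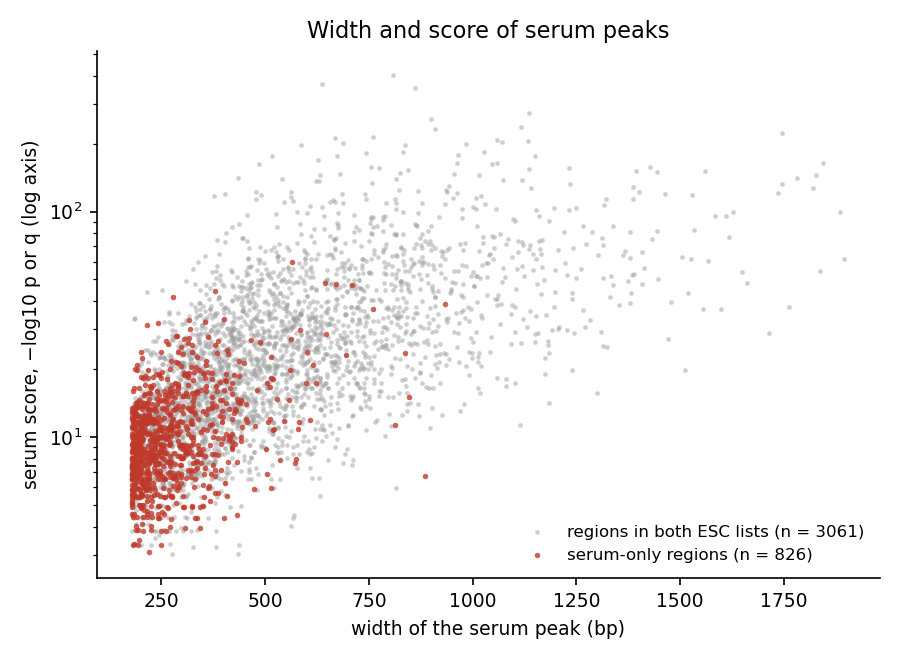
Width of the serum peak (x axis, bp) against its serum score (y axis, −log10 of p or q, log axis) for the 826 serum-only regions (red) and the highest-scored serum peak of each of the 3061 regions in both ESC lists (grey); each point is a region. Serum-only regions fill the narrow, low-scored corner, up to 933 bp and a score of 59.8, while shared regions extend to 1895 bp and 404.8.

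The members thinned out steadily towards the strong end of the serum list. They were 48.0% of serum regions in the lowest score decile (171 of 356), 22.8% in the fifth (89 of 390), 5.51% in the eighth (22 of 399) and 0.251% in the highest (1 of 399). No member was among the 100 highest-scored serum peaks, 15 were among the first 1000 and 133 among the first 2000. Members also had a lower median width than shared serum peaks of like score in every decile but the ninth, where 7 members had 670 bp and the shared peaks 617 bp. In the third decile, at scores of 8.58 to 10.5, the median widths were 234 bp for members and 283 bp for shared peaks. In the seventh, at 19.3 to 25.03, they were 324 and 476.5 bp. A narrow peak has fewer bases with which to meet a peak of another list, so width is tied to the rule. Among members, width and score had a Spearman correlation of 0.33 across 826 regions, against 0.69 across the 3061 shared serum peaks. The median member width was 221 bp in the lowest score decile and 324 bp in the seventh. Members spanned a narrower range of scores, with quartiles of 7.15 and 13.3, against 11.6 and 34.3 for shared regions. A narrower range can lower a correlation, so no weaker tie among members is read from these values. Regions of 1 library share its depth and are not replicates.

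The 10 highest-scored members were scattered over 7 chromosomes, with 3 of them on chromosome 11 and 2 on chromosome 8. The strongest, on chromosome 8 at 73397121 to 73397685, scored 59.8 and had its nearest 2i peak 31975 bp away. A member from 59342167 to 59342836 on chromosome 10 scored 47.8 and was far more isolated, with the nearest 2i peak at 951237 bp and the nearest other serum peak at 1266268 bp. On chromosome 16, a member at 17722707 to 17723085 scored 44.3 within only 379 bp. The member on chromosome 11 at 32542429 to 32542705 scored 41.9 within 277 bp, 186901 bp from a 2i peak. None of the 10 had a 2i peak within 10 kb, where 25.9% of all 826 members had one. The nearest was 13484 bp away, at a chromosome 1 member from 135989602 to 135990001 that scored 33.2.

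Width and score parted in some of the widest members. The widest ran from 113959480 to 113960412 on chromosome 12 (933 bp) and scored 39.0. The next, on chromosome 7 at 104936853 to 104937736, spanned 884 bp but scored 6.68, rank 3666 of the serum list. Next in width were a chromosome 10 region from 22450644 to 22451489 (846 bp, score 15.1), a chromosome 11 region from 43495481 to 43496316 (836 bp, 23.6) and a chromosome 10 region from 7309432 to 7310243 (812 bp, 11.3). At the weak end, the lowest-scored member ran from 55797664 to 55797882 on chromosome 12 (3.09). The next, from 104430407 to 104430655 on chromosome 2 and from 73922060 to 73922241 on chromosome 12, scored 3.30 each. The lowest score in the serum list as a whole was 3.03.

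The distance from a member to the nearest 2i peak fell into a near and a far group. The median edge-to-edge distance was 49644.5 bp (43086 to 56114), and the quartiles were 8857 and 158090 bp. A 2i peak lay within 1 kb of 141 members, or 17.1% (14.6 to 19.8), and 115 of these distances were at most 500 bp. Only 73 members, or 8.84%, had their nearest 2i peak between 1 and 10 kb away, whereas 317, or 38.4%, had it between 10 and 100 kb and 295, or 35.7%, beyond 100 kb. The same dip stood in the mirror measurement, from 2i-only regions to the nearest serum peak, where 9.70% were within 1 kb, 6.79% between 1 and 10 kb and 47.9% beyond 100 kb. The 2i list is the longer one, which shortens distances to it. Score varied little with distance: members within 100 bp of a 2i peak had a median score of 8.96 (6.94 to 11.5) and those beyond 100 kb 9.64 (8.61 to 10.3).

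**Figure D2:**
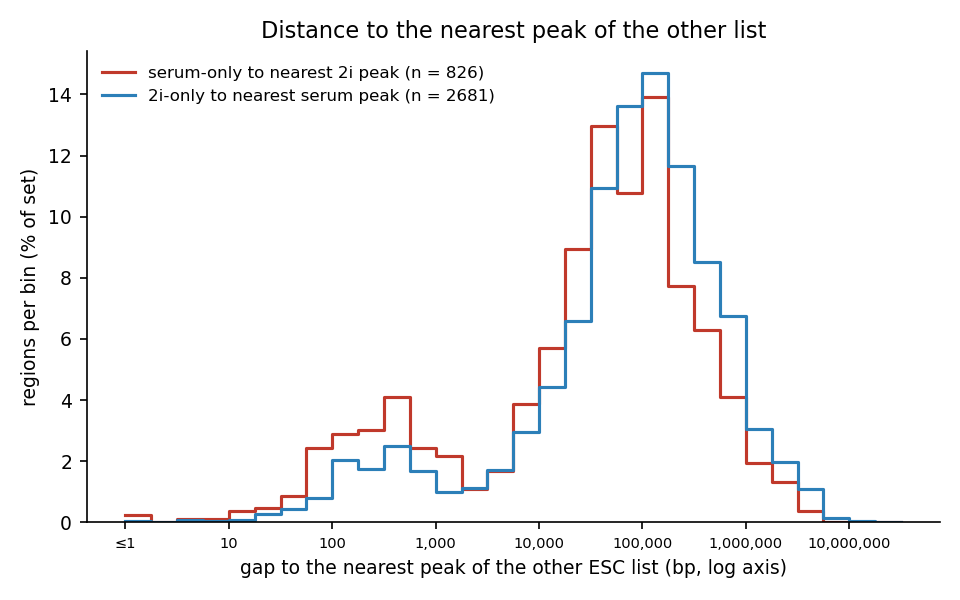
Histogram of the gap to the nearest peak of the other ESC list (x axis, bp, log axis) as percent of each set (y axis), for serum-only regions to 2i peaks (red, n = 826) and 2i-only regions to serum peaks (blue, n = 2681). Both lines have a small hump below 1 kb, a dip between 1 and 10 kb and a large hump between 10 kb and 1 Mb.

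The near members lay beside shared peaks and beside 2i-only peaks. Of the 141 members within 1 kb of a 2i peak, 88 had as their nearest 2i peak one in a region of both ESC lists (8 of these regions also held an NPC peak), and 53 had one that was listed in 2i alone. The first group is 62.4% (53.9 to 70.4), while 53.3% (52.0 to 54.6) of all 5745 kept regions with a 2i peak were in both ESC lists. The first share counts members by their nearest 2i peak and the second counts regions, so the units differ. The 2 intervals overlap. Shared regions were also wider, with a median of 585 bp against 236 bp for 2i-only regions. No excess beside shared regions is read from these shares. Beside a shared region the median gap was 216.5 bp (179 to 319). The member scored a median of 9.44 (8.44 to 10.3) and the shared neighbour 17.6 (13.6 to 23.9) in the serum list. The neighbour scored higher in 69 of the 88 pairs. Over the whole sets the medians were 9.69 for members and 19.4 for shared regions, so this order is not particular to neighbours. Beside a 2i-only peak the median gap was 168 bp (103 to 319). There the member scored a median of 8.52 (7.004 to 10.7) in the serum list. The neighbour scored 9.04 (6.99 to 10.8) in the 2i list, and the 2 values are not compared because depth is unknown. Of the 826 members, 3 had 2i peaks within 1 kb on both sides.

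The boundary of the membership rule ran through pairs of peaks that nearly met. The member on chromosome 4 at 133228519 to 133228775 (serum score 5.43) and that on chromosome 6 at 47827556 to 47827750 (7.77) touched a 2i peak with a gap of 0 bp and no shared base. The next were separated from a 2i peak by 4 bp, on chromosome 1 at 154613796 to 154614167 (8.37), by 8 bp, on chromosome 5 at 73305949 to 73306251 (13.8), and by 12 bp, on chromosome 5 at 67818709 to 67819086 (7.14). Just outside the rule, the serum peak on chromosome 2 at 24805679 to 24805885 (4.90) shared 6 bp with a 2i peak that scored 14.6. That on chromosome 7 at 133645923 to 133646124 (6.08) shared 9 bp with one that scored 16.2. Another 3 serum peaks shared 17, 22 and 24 bp with a 2i peak: on chromosome 1 from 120355801 to 120356027 (9.16) and from 95375387 to 95375602 (12.4), and on chromosome 3 from 100913977 to 100914291 (3.30). Such grazing contacts were rare, since 18 of the 3236 serum peaks that overlapped a 2i peak did so by at most 50 bp. Under a reciprocal overlap of 50%, 1528 serum peaks had no partner in place of 826.

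Some members stood in long stretches without 2i peaks, and 30 were more than 1 Mb from any. The farthest, on chromosome X at 108576684 to 108577018 (score 7.31), was 4083183 bp from a 2i peak and 5194360 bp from another serum peak. A pair of members on chromosome 11, at 40505880 to 40506077 (5.85) and 40508276 to 40508578 (12.8), lay 2198 bp apart and at least 3775330 bp from a 2i peak. The member on chromosome 10 at 33739281 to 33739652 (13.6) was 3116470 bp away, and that on chromosome 6 at 43215623 to 43215861 (10.4) 2939908 bp. NPC peaks were farther still, with a median distance of 1837876 bp in a list of 320 peaks, and 9 members had one within 1 kb. The closest was 16 bp from the member on chromosome 10 at 126817519 to 126817833 (13.5), which also had a 2i peak at 27 bp.

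Few serum-only regions had another serum-only region close by. Each was a median of 426213 bp (368201 to 507396) from the nearest other member, and a median of 55394 bp (48735 to 67138) from the nearest other serum peak of any kind. They were not isolated within the serum list. The median distance to another region with a serum peak was 55314.5 bp (48696 to 67064) for members and 77624 bp (73022 to 81745) for the other serum regions. Lower quartiles were 8728.75 and 23532 bp. A member holds 1 serum peak, while a region in both ESC lists held up to 7. Merging removes such close neighbours from the second measure only, so the 2 distances are not fully alike. Joining members with gaps of at most 10 kb gave 43 clusters that held 87 members, or 10.5% (8.52 to 12.8), and 42 of the clusters were pairs. By the same joining, each class on its own, 13.4% (12.2 to 14.6) of the 3061 shared and 20.5% (19.0004 to 22.1) of the 2681 2i-only regions were in clusters, in sets that are larger and hence denser. Their gaps were short, with a median of 422 bp (275 to 790) for the largest gap of a cluster, and in 30 of the 43 no gap exceeded 1 kb. In 32 of the 43 clusters no member had a 2i peak within 10 kb, and in 9 a member had one within 1 kb. Of all 826 members, 25.9% had a 2i peak within 10 kb and 17.1% within 1 kb, so these distances were not particular to clusters. Clustered members had a median score of 9.64 and the 739 others 9.77.

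No cluster reached 4 members. The one cluster of 3, named here after its values were seen, lay on chromosome 4 at 8615195 to 8619380. Its members scored 7.31, 8.46 and 10.8, with widths of 232, 197 and 248 bp, and 1 2i peak and 2 other serum peaks lay between them. The highest-scored pair, also chosen after its values were seen, was on chromosome 7 at 4966031 to 4966616. Its peaks scored 26.8 and 11.1 and were 125 bp apart. With joins of up to 50 kb, 70 clusters held 18.6% of the members, the largest with 5. When only peaks above the median score of the serum list were used, 143 members remained and 2 clusters.

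The share of serum regions that were serum-only varied between chromosomes. It was highest on chromosome 10, with 68 of 184, or 37.0% (30.0 to 44.4), and on chromosome 11, with 95 of 325, or 29.2% (24.3 to 34.5). Chromosome 7 followed with 68 of 259, or 26.3% (21.002 to 32.1). It was lowest on chromosome 9, where 15 of 185 serum regions, or 8.11% (4.61 to 13.0), were serum-only although 175 regions there were 2i-only. The remaining 16 chromosomes lay between 14.2% (chromosome 14) and 22.4% (chromosome 17), near the 21.2% of the whole set. Chromosome X held 8 members, or 0.969% (0.419 to 1.90), against 0.947% of regions in both ESC lists. With only peaks above the median serum score, 0 of 143 members were on X, which allows up to 2.55% (upper exact bound).

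**Figure D3:**
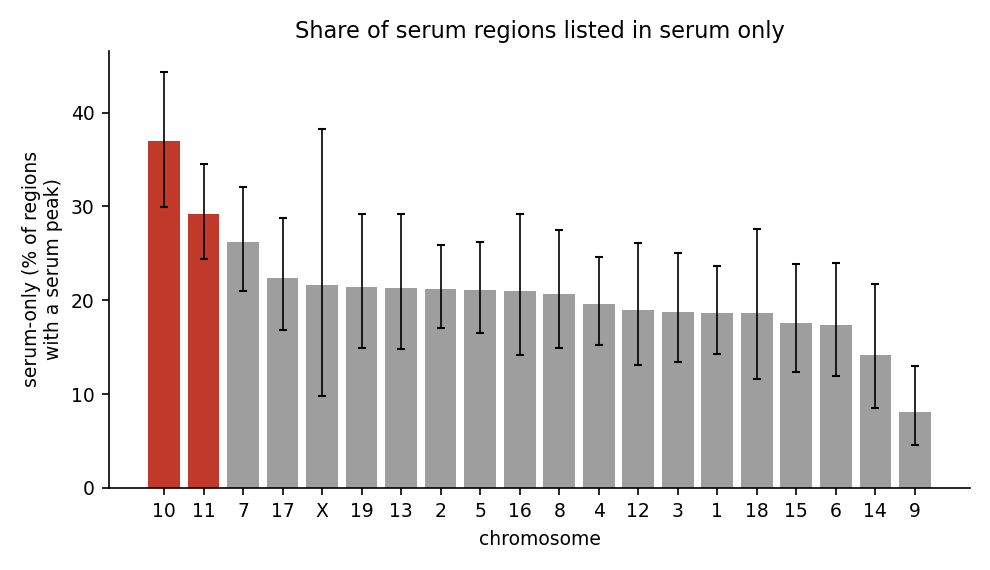
Serum-only regions as percent of the regions with a serum peak on each chromosome (y axis), ordered from highest to lowest; bars are shares and lines are 95% Clopper-Pearson intervals for counting error. Chromosomes 10 (37.0%) and 11 (29.2%), in red, stand at the top and chromosome 9 (8.11%) at the bottom.

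On chromosomes 10 and 11 the excess was held by long segments. The genome was divided into windows of 10 Mb, and 271 of them held a region of either ESC list. Serum-only regions outnumbered 2i-only regions in 22 windows, or 8.12%, were outnumbered in 241 and were equal in number in 8. All 7 windows of the first 70 Mb of chromosome 10 were among the 22, and so were both windows from 40 to 60 Mb of chromosome 11. The other 13 were scattered, with an excess of at most 3 regions and no neighbouring windows among them. These counts depend on the longer 2i list. With that list cut to the 4072 highest-scored peaks, serum-only regions outnumbered 2i-only regions in 97 of 270 windows. The 97 included all 9 windows of the segments, with 52 serum-only against 2 2i-only regions on chromosome 10 and 42 against 3 on chromosome 11. The other 88 had an excess of up to 15 regions, and over the whole genome outside the segments there were 1171 serum-only and 1347 2i-only regions. Cutting the 2i list removes 2i-only regions and turns shared regions into serum-only ones. Windows that already held more serum-only regions were therefore nearly bound to remain so, and their presence among the 97 is no check of the segments. The windows and the limits of these segments were chosen after the counts were seen, so they carry no test.

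**Figure D4:**
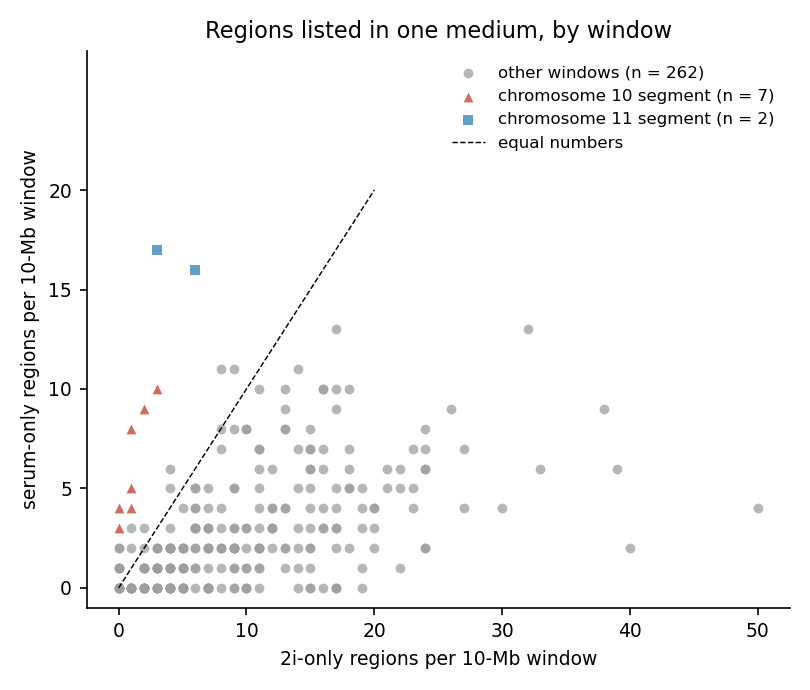
Number of 2i-only regions (x axis) and serum-only regions (y axis) in each of 271 windows of 10 Mb; each point is a window, triangles are the 7 windows of the first 70 Mb of chromosome 10, squares the 2 windows from 40 to 60 Mb of chromosome 11, and the dashed line marks equal numbers. The squares, at 17 against 3 and 16 against 6, and the triangles, from 3 against 0 to 10 against 3, all lie above the line.

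In the first 70 Mb of chromosome 10 there were 43 serum-only regions, 8 2i-only regions and 25 in both ESC lists. Serum-only regions were thus 63.2% (50.7 to 74.6) of the 68 serum regions there. From 70 Mb to the end of the chromosome there were 25 serum-only and 68 2i-only regions, and the serum-only share was 21.6% (14.5 to 30.1). A stretch without peaks lay just past this limit: the last serum-only region before the stretch was at 70700560 to 70700759, and the next region, shared by both media, at 74523187 to 74523779. The first of these 2 regions is counted outside the segment, and the point at which the counts change was not estimated. On chromosome 11, 33 serum-only and 9 2i-only regions lay from 40 to 60 Mb, so that 50.8% (38.1 to 63.4) of 65 serum regions were serum-only, against 23.8% (18.8 to 29.5) on the remainder of that chromosome. In the genome outside both segments, 750 of 3757 serum regions, or 19.96% (18.7 to 21.3), were serum-only and 2664 regions were 2i-only. The dense block left out by the rule lies in the first of these segments and goes the other way, with 77 2i-only regions and 1 serum-only region among its 85.

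Members inside the segments had a median score of 9.92 (7.71 to 11.5) on chromosome 10 and 10.4 (8.72 to 13.1) on chromosome 11, against 9.60 (9.21 to 9.99) elsewhere. Their median width was 297 and 287 bp, against 245 bp. The median distance to a 2i peak was 315470 bp (187958 to 478428) and 147422 bp (50495 to 275972), against 44501.5 bp (39245 to 51536), which follows in part from the choice of segments with few 2i-only regions. The median distance to another serum peak was 95633 bp (23185 to 314510) and 51905 bp (21406 to 102106), against 55141.5 bp (48373 to 67138). Of the 43 members in the chromosome 10 segment, 6 had a 2i peak within 1 kb, and of the 33 in the chromosome 11 segment 1 did. Among serum regions above the median score of the list, 7 of 21 and 9 of 37 were serum-only in the segments, or 33.3% and 24.3%, against 127 of 1935, or 6.56%, elsewhere.

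Regions found in both media ranked differently in the 2 lists inside and outside these segments. Each shared region was placed by its percentile in the serum list and in the 2i list, from 0 for the weakest peak to 100 for the strongest. The 2i list has the longer tail of weak peaks, which raises the 2i percentile of shared regions everywhere, so a difference of 0 marks no equality and the segments are set against the other regions. In the chromosome 10 segment the 25 shared regions had a median percentile of 57.8 in serum and 48.2 in 2i, and the median of the serum minus 2i difference was 14.7 percentage points (7.92 to 23.7). In the chromosome 11 segment the 32 shared regions had medians of 70.3 and 54.1, and the difference was 17.8 (2.22 to 27.1). Elsewhere the 3004 shared regions had medians of 59.8 and 71.6 and a difference of -6.54 (-7.50 to -5.73). The serum percentile was the higher one in 20 of 25, 23 of 32 and 1058 of 3004 regions, in that order. With the 2i list cut to the length of the serum list, the median differences were 32.5 (15.7 to 45.3) over 16 shared regions, 29.2 (14.7 to 39.1) over 23, and -0.135 (-0.835 to 0.442) over 2589. Cutting the weakest 2i peaks lowers the 2i percentiles of the remaining regions, most for those ranked lower. With the full list, shared regions of the segments ranked lower in 2i than those elsewhere. The larger differences after the cut are therefore no check of the segments. The percentiles come from the same lists that define the members and were used to choose the segments, so this is not an independent measurement.

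**Figure D5:**
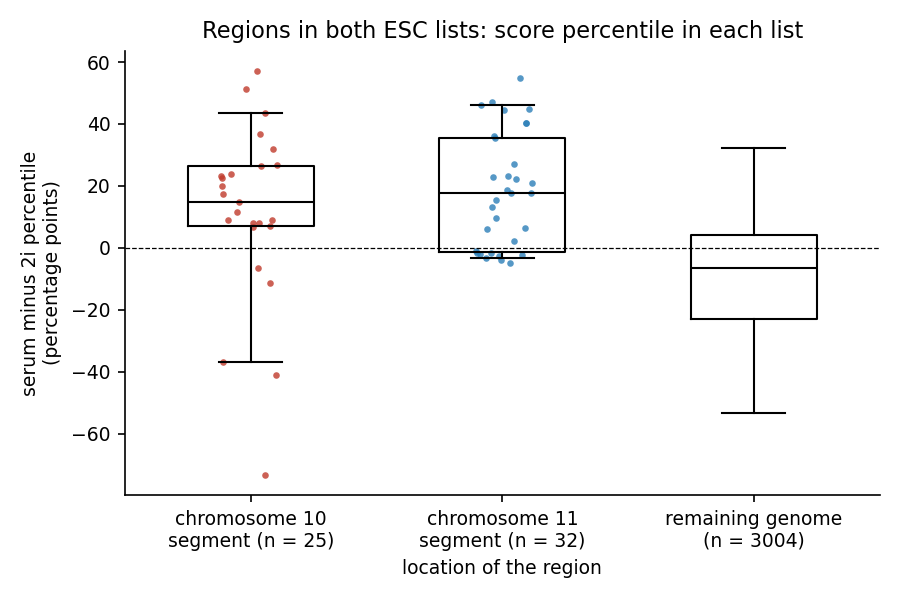
Serum percentile minus 2i percentile (y axis, percentage points) of regions in both ESC lists in the chromosome 10 segment (n = 25), the chromosome 11 segment (n = 32) and the remaining genome (n = 3004); boxes show quartiles and median, whiskers the 5th and 95th percentiles, and points the single regions of the segments. The medians are 14.7, 17.8 and -6.54.

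Peak widths at shared sites, taken from the same lists, differed between the segments and the remaining genome. Width and serum score were tied across the 3061 shared serum peaks (Spearman correlation 0.69). The widths are therefore no separate support for the percentile difference. The serum peak was wider than the 2i peak at 19 of 25 shared regions in the chromosome 10 segment and at all 32 in the chromosome 11 segment, against 1237 of 3004, or 41.2%, elsewhere. Median widths were 419 bp in serum and 289 bp in 2i on chromosome 10, 580 and 321 bp on chromosome 11, and 447 and 506 bp elsewhere. The narrowest widths differ between the 2 lists, so the segments are set against the remaining genome and not serum against 2i alone. Not every shared site followed. A chromosome 10 region from 25016513 to 25017092 scored 3.57 in serum, at percentile 0.516, and 20.6 in 2i, at percentile 73.9. It was picked as the lowest difference within the segments. NPC peaks were present at 2 of 68 serum regions in the chromosome 10 segment, or 2.94% (0.358 to 10.2). They were present at 3 of 65 in the chromosome 11 segment, or 4.62% (0.962 to 12.9), and at 281 of 3757, or 7.48%, elsewhere. Serum-only regions hold no NPC peak by the rule, so segments rich in them have a lower share by construction. Whether the number of copies of these segments, the depth or the control library differed between the libraries was not tested, and with 1 library per medium these and the culture cannot be told apart.

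Over all 20 chromosomes, the serum-only share and the median serum minus 2i percentile difference of shared regions had a Spearman correlation of 0.66. The chromosomes share both libraries, and the value is a description. Both quantities come from the lists that define the members, so they are not independent of each other. Chromosomes 10 and 11, which hold the segments chosen after the counts were seen, are among the 20. That difference was below 0 on every chromosome with the full lists: it was -1.11 points on chromosome 10 and -0.241 on chromosome 11, the values nearest to 0, and -10.9 on chromosome 9.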

How the data were processed

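The authors deposited 1 peak list per tagged sample. Per the submitters' processing notes, MACS2 2.0 and SAMtools were used and positions are in mm9. Not given in the sources used here are the aligner, the control library and what merged means in the list names. The deposited score was read as a −log10 of a p or q value, since no score falls below −log10 of the cutoff that names the list (0.001 for ESCs, 0.01 for NPCs). Scores grow with depth, which is unknown, so they were compared within a list or as percentiles. Where scores of both lists are printed together, their sizes are not compared.

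Peaks were merged at an overlap of 1 bp, distances measured edge to edge, and members joined into clusters at gaps up to 10 kb. Shares carry 95% Clopper-Pearson intervals and medians order-statistic intervals. Named regions are the 10 highest-scored, 5 widest, 5 nearest to and 5 farthest from a 2i peak, the 3 lowest-scored, clusters of 4 or more and the 5 smallest overlaps outside the rule. Members, lists and rules were chosen with earlier results of these data known. Python 3.11.15 with numpy 2.4.6, pandas 2.3.3, scipy 1.17.1 and matplotlib 3.10.9 was used. On a simulated list of 4072 peaks, 200 planted serum-only regions and their distances were recovered with a difference of 0, and bedtools 2.31.1 gave the same 831 serum-only regions before exclusion.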

Additional observations from a re-analysis of the deposited data

How the results depend on the processing

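Of 71 alternative values, 36 lay inside the 95% interval of the main value or, for counts, differed from it by a factor of at most 1.5. That factor is wide for the number of serum-only regions. Counting peaks up to 1 kb apart as shared lowered it from 826 to 656. Counting those up to 10 kb apart as shared lowered it to 579. These counts are among the 36, so the number of members does depend on how near misses are treated. Alternatives on the chromosome 10 and 11 segments, the windows, the percentile differences and the removal of the segments were chosen after seeing the data. Without both segments, none of the 9 results on all members moved. A reciprocal overlap of 50% gave 1528 regions, a median width of 268.5 bp, a median score of 10.3, a median distance to a 2i peak of 192.5 bp, and 55.1% and 59.9% within 1 and 10 kb of one, because peaks with a lesser overlap then count as members. Using only serum peaks above the median score gave 143 regions, 317 bp, a score of 19.0, 21.7% within 10 kb, 0% on chromosome X, 2 clusters with 2.80% of members, and serum-only shares of 33.3% (chromosome 10 segment), 24.3% (chromosome 11 segment) and 6.56% (remaining genome). A 2i list reduced to the length of the serum list gave 1265 regions, 265 bp, 79611 bp, 11.2% and 17.9% within 1 and 10 kb, shares of 76.5%, 64.6% and 31.1%, percentile differences of shared regions of 32.5, 29.2 and -0.135 points in the same order, and 97 of 270 windows with more serum-only regions. Joins of 1 kb put 7.51% of members in clusters, and joins of 50 kb gave 70 clusters with 18.6%. In the remaining genome the share was 16.8% with peaks up to 1 kb apart counted as shared and 18.1% with each cluster counted once. Windows of 5 Mb gave 48 of 505 and windows of 20 Mb 8 of 143 with more serum-only regions. No paired analysis was possible because each group has 1 library.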

Other observations

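Of the 5 serum-only regions left out by position, 3 lay close together on a contig of chromosome 9 with no assigned position, at 54609 to 55046, 55655 to 56017 and 56910 to 57336. They scored 18.9, 13.4 and 25.4, above the member median of 9.69. The others were on a chromosome 1 contig at 362161 to 362416 (score 7.01) and in the dense block on chromosome 10 at 5854465 to 5854644 (3.94).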
